A study of Mus musculus with 11 samples.

Results

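Cells are held together by junctions. Adherens junctions are built from cadherins, which reach across to the next cell, and from catenins, which tie the cadherin tail to actin. Desmosomes pair desmosomal cadherins with plakoglobin, plakophilins and desmoplakin, and anchor intermediate filaments. Tight junctions seal the gap between epithelial cells, and polarity complexes such as Crumbs-PALS1-PATJ and PAR set where the seal forms. These systems are best known from epithelium, but alveolar macrophages, the phagocytes of the air spaces, also make E-cadherin and its catenins. Described here are 9 genes of these systems in alveolar macrophages of newborn mice: the polarity scaffolds Patj and Pard3, the desmosome genes Pkp2 and Dsp, the adherens genes Cdh1, Ctnnb1 and Jup, and the tight junction genes F11r and Tjp1. They were picked by name out of 57180 identifiers in the count table. Patj and Pkp2 stood out in earlier results on the same hyperoxia comparison, so for all 9 genes hyperoxia against normoxia is given as a description, without a test. All 9 passed the filter on low counts, as did 19948 genes in all.

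The RNA came from alveolar macrophages sorted by flow cytometry from homogenised lungs of wild-type C57BL/6 pups on postnatal day 7. Hyperoxia pups had breathed 95% oxygen from postnatal day 1 to day 5, so the cells were taken 2 days after the exposure ended, and the other pups were kept in normoxia. The 11 libraries comprise normoxia males (NM1 to NM3), normoxia females (NF1 to NF3), hyperoxia males (HM2 and HM3) and hyperoxia females (HF1 to HF3). Whether a library is 1 animal or a pool is not stated, so a p-value here reflects only how far these libraries vary, and part of that variation may be technical.

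Total counts ran from 18087948 to 32579468 per library. Levels are in CPM, counts divided by the scaled library size and set to the usual scale of that unit. A floor of 3 counts in a library equals 0.0880 to 0.160 CPM, which covers counting error only. All 19 alveolar macrophage markers passed the filter. Siglecf, the defining surface lectin, stood at 157 to 377 CPM. NM3 had the most genes detected (35530), close to HF2 (35449), HF3 (34236) and NF3 (33158), with 26856 to 30173 in the rest. It also had the lowest summed level of those 19 markers (6469 CPM, against 7049 to 11230 CPM in the others). In NM3, 9 of 11 endothelial, 6 of 10 mesenchymal, 5 of 8 cardiomyocyte, 3 of 5 mesothelial and 4 of 5 B cell markers had their highest value of the series. The same held for 2 of 17 epithelial and 0 of 12 monocyte and interstitial macrophage markers, and for 9 of 13 further desmosome genes. The source of these peaks was not tested.

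**Figure D1:**
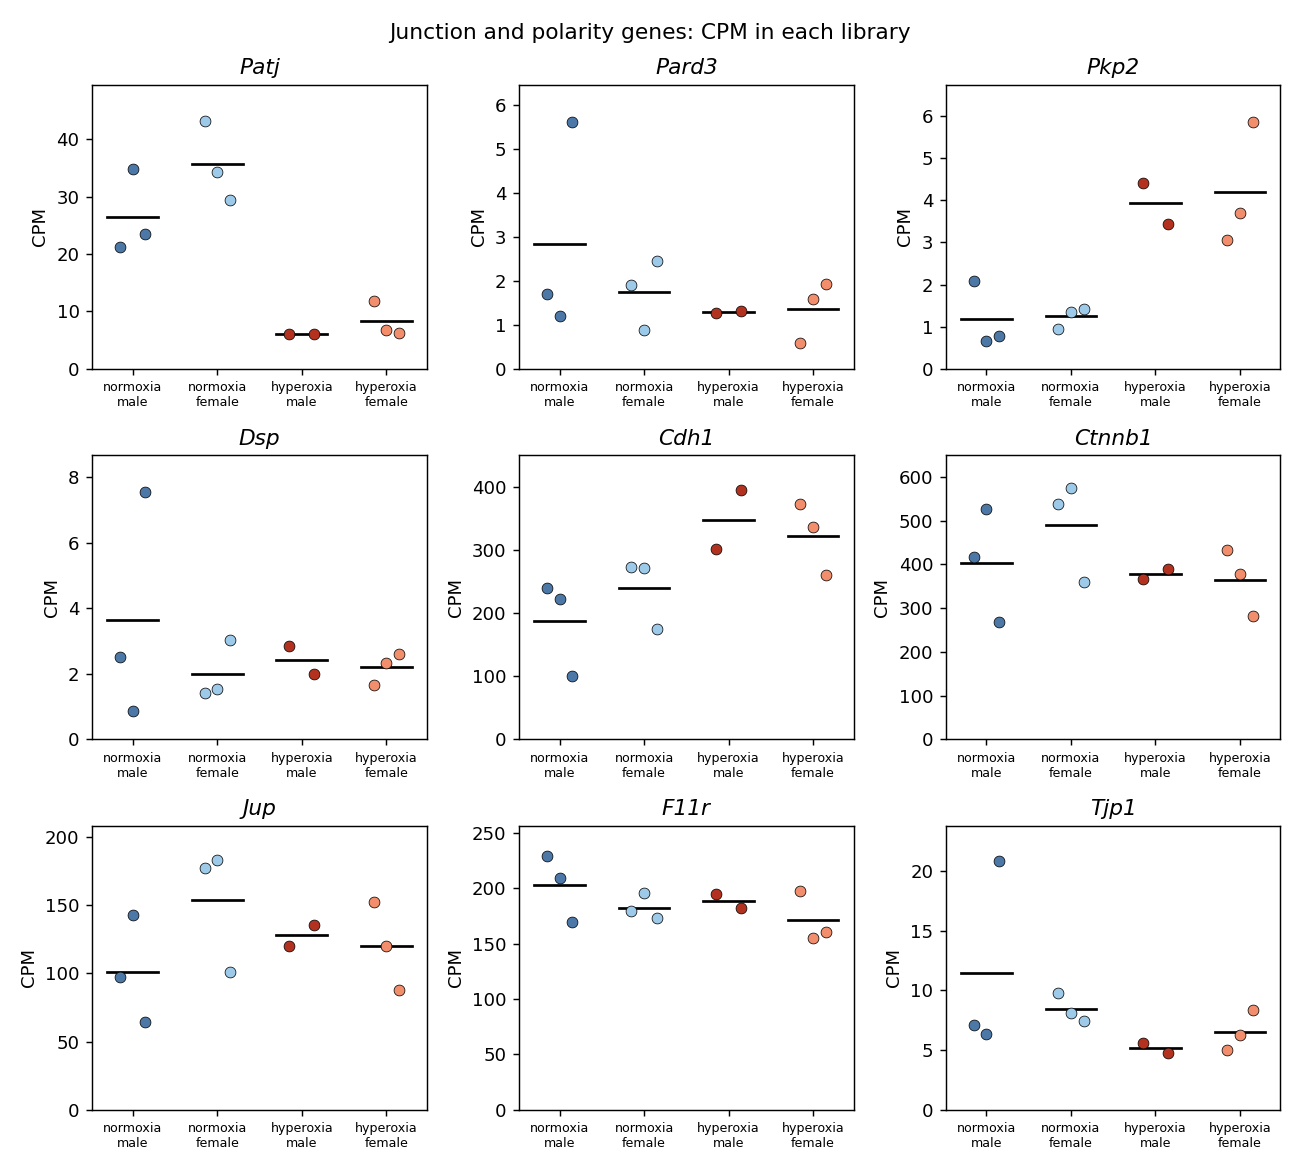
CPM of each of the 9 genes (y axes from 0) in the 4 groups (x axis), with 1 point per library and a line at the group mean. For Patj and Pkp2 no hyperoxia point reaches the range of the normoxia points, while the high points of Pard3, Dsp and Tjp1 are all NM3.

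Patj (ENSMUSG00000061859) encodes a scaffold with many PDZ domains that joins PALS1 and Crumbs at the apical side of epithelial cells. It was lower after hyperoxia. Its level was 21.2, 34.8 and 23.4 CPM in NM1 to NM3 and 43.1, 34.4 and 29.5 CPM in NF1 to NF3. After hyperoxia it was 6.07 and 6.14 CPM in HM2 and HM3 and 11.8, 6.78 and 6.25 CPM in HF1 to HF3. The highest hyperoxia library, HF1, lay below the lowest normoxia library, NM1, so the groups did not overlap. The mean was 31.1 ± 8.09 CPM (SD, n = 6) in normoxia and 7.41 ± 2.49 CPM (SD, n = 5) in hyperoxia, 4.19 times lower. The fitted log2 fold change was -2.11 ± 0.21 (SE), with -2.12 ± 0.32 in males and -2.11 ± 0.27 in females. Among all genes tested, 0.396% had every hyperoxia library below every normoxia library.

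Pkp2 (ENSMUSG00000041957) encodes plakophilin 2, an armadillo protein that links desmosomal cadherins to desmoplakin and is best known from heart muscle. It was higher after hyperoxia but scarce throughout. It stood at 2.08, 0.667 and 0.774 CPM in NM1 to NM3 and 0.954, 1.35 and 1.42 CPM in NF1 to NF3. The hyperoxia values were 4.41 and 3.44 CPM in HM2 and HM3 and 3.05, 3.70 and 5.87 CPM in HF1 to HF3. The groups did not overlap: the lowest hyperoxia library, HF1, lay above NM1, the highest normoxia library. The values rest on 15 to 39 counts per normoxia library and 92 to 171 per hyperoxia library. The means were 1.21 ± 0.52 CPM (SD, n = 6) and 4.10 ± 1.11 CPM (SD, n = 5), 3.39 times higher after hyperoxia. The fitted log2 fold change was 1.75 ± 0.32 (SE), with 1.75 ± 0.48 in males and 1.76 ± 0.44 in females. Every hyperoxia library exceeded every normoxia library for 1.76% of all genes tested.

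For hyperoxia over both sexes, 141 of 19948 genes (0.707%) were called at an adjusted p under 0.05 by the quasi-likelihood method of edgeR, with 0.541% higher and 0.165% lower. Patj and Pkp2 are among them, which is how they were chosen, and the other 7 genes are not. In males alone and in females alone 0.0401% of genes were called, Patj among them in each sex and Pkp2 in neither. All calls of Patj and Pkp2 given here rest on the comparison that chose them and add no separate support. Pkp2 was not among the genes called when NF1, NF2, HM2 or HM3 was left out (log2 fold changes of 1.67, 1.76, 1.67 and 1.85), nor when the 4 libraries richest in detected genes (NM3, NF3, HF2 and HF3) were dropped together (1.47).

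Some markers of the alveolar macrophage were also lower after hyperoxia. Of the 19, 5 fell, against 0.165% of all genes (Fabp4, Fabp1, Ear1, Krt79 and Cidec, adjusted p of 0.000158 to 0.0377 with edgeR). The other 14 did not pass the test, though 17 of the 19 had log2 fold changes below 0 (median -0.28). Siglecf (-0.69 ± 0.20, SE) and Chil3 (-0.85 ± 0.25) were among those below 0. Marco (0.18 ± 0.23) and Mrc1 (0.01 ± 0.24) were above 0, and Itgax stood at -0.06 ± 0.25. The 19 markers together summed to 6469 to 11230 CPM in normoxia and 7049 to 9888 CPM in hyperoxia. The 8 cardiomyocyte markers, which bear on Pkp2, summed to 1.99 to 12.1 CPM in normoxia and 2.56 to 5.97 CPM in hyperoxia. The top normoxia sums were those of NM3 (12.1 CPM) and NF3 (8.10 CPM), with 1.99 to 4.08 CPM in the rest. Pkp2 was 0.774 CPM in NM3 and 1.42 CPM in NF3. In hyperoxia the highest sum was that of HF3, which also had the highest Pkp2. The lowest hyperoxia sum was that of HM2 (2.56 CPM), whose Pkp2 (4.41 CPM) was above those of HM3, HF1 and HF2. Monocyte and interstitial macrophage markers did move with hyperoxia. The 11 that passed the filter all had log2 fold changes above 0, with none past the test. The 12 on the list summed to 39.4 to 96.0 CPM in normoxia and 70.7 to 221 CPM in hyperoxia. The highest sum was that of HF2, whose Pkp2 was 3.70 CPM, and HF3, with the highest Pkp2, had a sum of 82.1 CPM. HF1 was the lowest hyperoxia library in both (70.7 and 3.05 CPM). Among normoxia libraries, NM1 was highest in both (96.0 and 2.08 CPM) and NM2 lowest in both (39.4 and 0.667 CPM). The part of cardiomyocyte, monocyte and interstitial macrophage RNA, and of the alveolar macrophage markers, in the Pkp2 and Patj values was not tested. In sorted bulk samples, fewer cells of a type and less RNA per cell cannot be told apart.

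**Figure D2:**
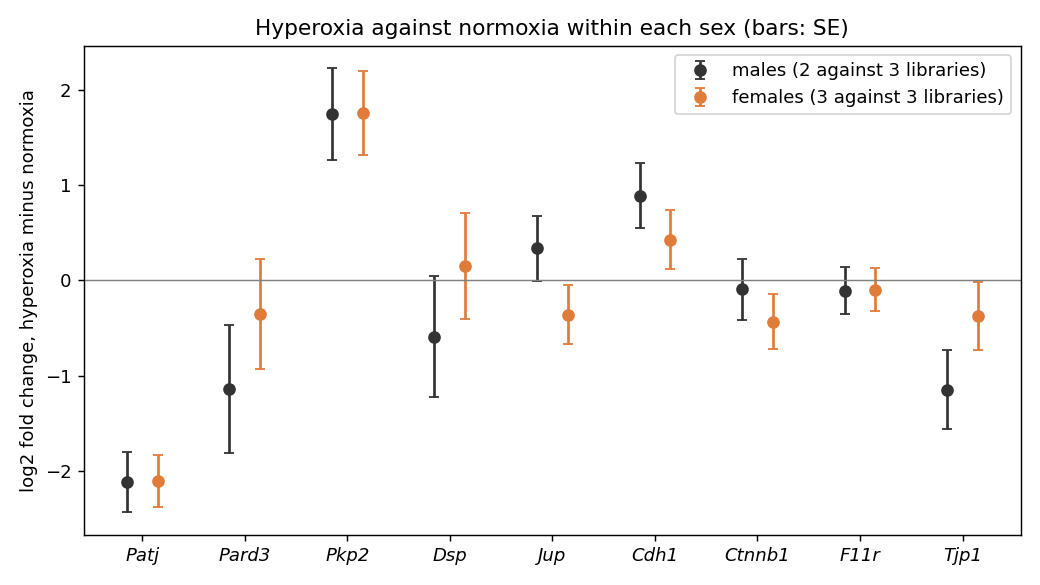
Log2 fold change of hyperoxia minus normoxia (y axis) for each of the 9 genes (x axis), fitted in males and in females, with bars of 1 SE. Patj lies near -2.1 and Pkp2 near 1.75 in both sexes, and for Jup and Dsp the 2 sexes lie on either side of 0.

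Among the adherens genes, Cdh1 encodes E-cadherin, the cadherin of epithelial cells. It stood at 240, 222 and 101 CPM in NM1 to NM3 and 273, 272 and 175 CPM in NF1 to NF3. Its hyperoxia values were 302 and 394 CPM in HM2 and HM3 and 373, 336 and 260 CPM in HF1 to HF3. Hyperoxia libraries were higher except that HF3 lay below NF1 and NF2, so the groups overlapped through 1 library. The log2 fold change was 0.66 ± 0.23 (SE), with 0.89 ± 0.34 in males and 0.43 ± 0.31 in females, and 0.50 without NM3.

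Ctnnb1 encodes beta-catenin, which binds the cadherin tail and also carries Wnt signals to the nucleus. Its level was 416, 527 and 268 CPM in normoxia males, 538, 575 and 360 CPM in normoxia females, 367 and 390 CPM in hyperoxia males and 432, 377 and 281 CPM in hyperoxia females. The 2 groups overlapped widely, and the log2 fold change was -0.26 ± 0.22 (SE), between -0.38 without NM3 and -0.14 without NM2. Jup encodes plakoglobin, the relative of beta-catenin that serves both adherens junctions and desmosomes. It ranged from 64.3 to 183 CPM (median 122) in normoxia and from 88.2 to 152 CPM (median 120) in hyperoxia, with a log2 fold change of -0.01 ± 0.23 (SE). Its fold change was 0.34 ± 0.34 in males and -0.36 ± 0.31 in females, and over both sexes it ran from -0.14 without NM3 to 0.15 without NM2. For Cdh1, Ctnnb1 and Jup, NM3 was the lowest of all 11 libraries.

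The balance of Cdh1 to Ctnnb1 within a library does not depend on how libraries are scaled. It was chosen after the values of both genes had been seen and is a description. Per length of exon, Cdh1 was 0.655, 0.479 and 0.427 times Ctnnb1 in NM1 to NM3 and 0.575, 0.537 and 0.552 times in NF1 to NF3. After hyperoxia the ratio was 0.932 and 1.15 in HM2 and HM3 and 0.981, 1.01 and 1.05 in HF1 to HF3. The lowest hyperoxia library lay above the highest normoxia library, NM1, and NM3, lowest for both genes, lay with the other normoxia libraries. How often ratios of other gene pairs separate in this way was not counted. Jup relative to Ctnnb1 ranged from 0.188 to 0.266 in normoxia and from 0.253 to 0.284 in hyperoxia, with overlap through NF1 and NF2. Cdh1 relative to Jup ranged from 2.09 to 3.48 and from 3.45 to 4.15, with overlap through NM1.

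**Figure D3:**
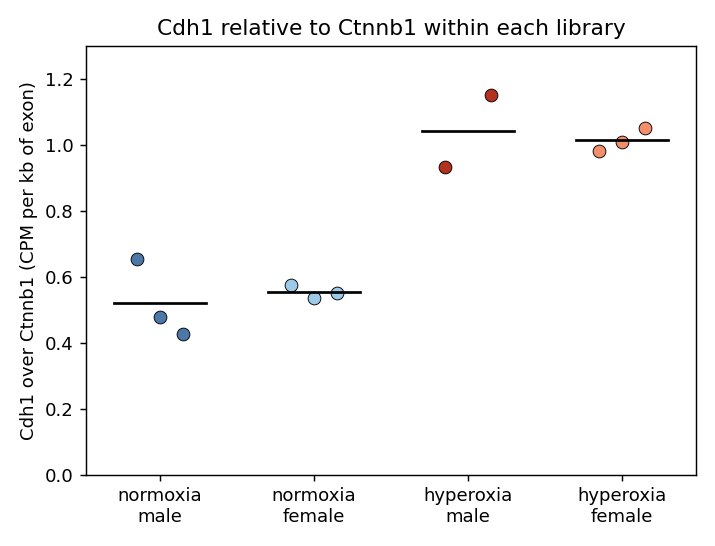
Cdh1 divided by Ctnnb1, both in CPM per kb of exon (y axis from 0), in the 4 groups (x axis), with 1 point per library and a line at the group mean. The 6 normoxia points lie between 0.427 and 0.655 and the 5 hyperoxia points between 0.932 and 1.15.

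Cdh1 was set against epithelial RNA in the sort. The 17 epithelial markers summed to 164 to 239 CPM in normoxia and 203 to 276 CPM in hyperoxia, and 11 of 17 had log2 fold changes above 0, with no marker past the test. A large part of that sum is Abca3, at 52.0 to 114 CPM (log2 fold change 0.11 ± 0.20, SE). The surfactant protein genes Sftpc (0.71 ± 0.39), Sftpb (0.95 ± 0.28), Sftpa1 (0.68 ± 0.32) and Sftpd (0.82 ± 0.42) were above 0. Below 0 were 6 of the 17 markers, Epcam among them. The part of epithelial RNA in the Cdh1 values was not tested. Per length of exon, Cdh1 exceeded Krt8, a keratin of simple epithelium, by 18.2 to 286 times, and Krt18, its partner, by 29.2 to 295 times. Against Sftpc, the surfactant protein made by type II epithelial cells, Cdh1 per length was 0.453 to 3.54 times as high. Against Epcam, an epithelial adhesion molecule, it was 10.8 to 22.6 times as high in normoxia and 38.6 to 64.6 times in hyperoxia. Epcam itself had a lower mean after hyperoxia, 3.43 against 5.98 CPM (log2 fold change -0.79 ± 0.23, SE, not past the test). The ratios to Krt8, Krt18 and Sftpc overlapped between the oxygen groups. For Sftpc they were 0.453 to 3.54 in normoxia and 0.778 to 2.93 in hyperoxia.

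Of the tight junction genes, F11r encodes JAM-A, an immunoglobulin-like adhesion molecule also found on leukocytes. Its levels were close to each other, from 169 to 229 CPM (median 187) in normoxia and from 155 to 197 CPM (median 182) in hyperoxia. The log2 fold change was -0.10 ± 0.17 (SE), between -0.17 and -0.07 with 1 library left out. Tjp1, which encodes the scaffold ZO-1, stood at 7.10, 6.38 and 20.8 CPM in normoxia males and 9.76, 8.11 and 7.41 CPM in normoxia females. Hyperoxia males had 5.60 and 4.71 CPM and hyperoxia females 5.01, 6.22 and 8.34 CPM. Most hyperoxia libraries were lower, HF3 being within the normoxia range, and NM3 was more than 10 CPM above any other library. The log2 fold change of Tjp1 was -0.76 ± 0.27 (SE) and moved to -0.38 without NM3.

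Dsp and Pard3 were scarce, as Pkp2 was. Dsp encodes desmoplakin, the link from the desmosome to intermediate filaments. It ranged from 0.875 to 7.54 CPM (median 2.02) in normoxia and from 1.66 to 2.84 CPM (median 2.32) in hyperoxia. Its log2 fold change was -0.22 ± 0.42 (SE), and without NM3 it was 0.32, so 1 library set its direction. Pard3, the core scaffold of the PAR complex, ranged from 0.889 to 5.63 CPM (median 1.81) in normoxia and from 0.597 to 1.92 CPM (median 1.31) in hyperoxia. Its log2 fold change was -0.75 ± 0.44 (SE), and -0.27 without NM3. Tjp1, Dsp and Pard3 were all highest in NM3, the library with the most endothelial and mesenchymal markers at their peak. Endothelial markers summed to 108 to 178 CPM in normoxia and 96.4 to 147 CPM in hyperoxia, with 11 of 11 log2 fold changes below 0, none past the test and none of the markers at 0 in every library. Vwf, at 63.3 to 139 CPM, makes up most of that sum in every library except NM3. It was lowest in NM3 (63.3 of 134 CPM), whereas Kdr was highest there at 20.0 CPM. Their part in these values was not tested.

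Per length of exon, the 9 genes fell into an abundant and a scarce set. Over the 11 libraries, the mean level in CPM per kb of exon was 79.3 ± 19.3 (SD) for Ctnnb1, 69.8 ± 8.21 for F11r, 58.6 ± 18.6 for Cdh1 and 19.5 ± 5.75 for Jup. Neighbours among the first 3 differed by less than the larger of their SDs, though by more than the SD of F11r. Patj followed at 1.55 ± 1.05, then Tjp1 at 1.04 ± 0.57, Pkp2 at 0.470 ± 0.318, Dsp at 0.266 ± 0.184 and Pard3 at 0.128 ± 0.093 CPM per kb. Here too neighbours differed by less than the larger of their SDs. In normoxia Patj (2.37 ± 0.62) stood above Tjp1 (1.27 ± 0.70) and Pkp2 (0.226 ± 0.098), whereas in hyperoxia the mean of Patj (0.567 ± 0.190) was below those of Tjp1 (0.765 ± 0.185) and Pkp2 (0.764 ± 0.207).

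**Figure D4:**
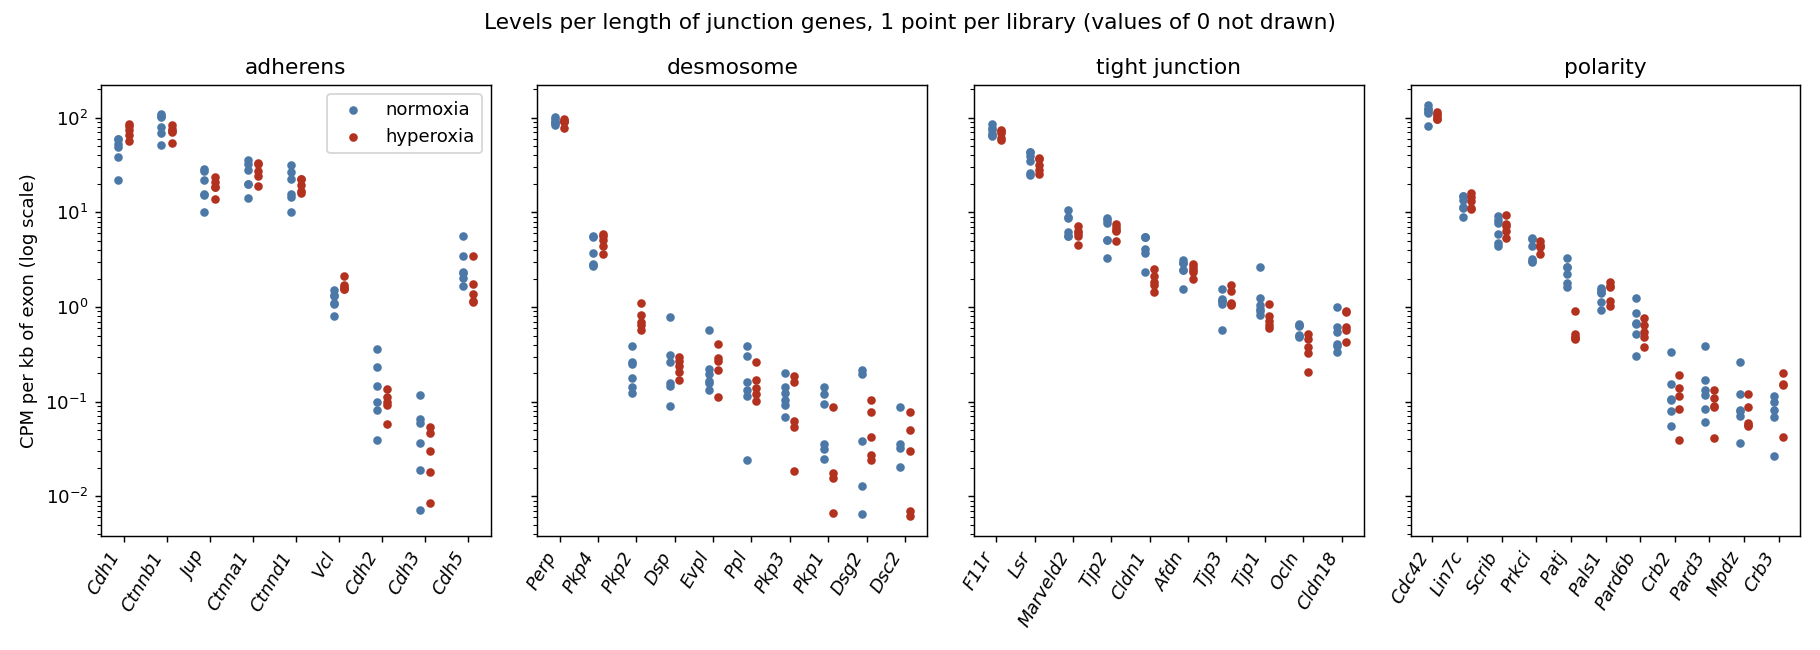
CPM per kb of exon (log axis) of genes of 4 junction systems, with 1 point per library, normoxia in blue and hyperoxia in red, and values of 0 left out. Adherens catenins sit near the top of their panel, the desmosomal cadherins Dsg2 and Dsc2 near the bottom of theirs, and Patj shows separate blue and red points.

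The partners of these genes show which complexes the sorted cells could supply at the RNA level. Alpha-catenin Ctnna1 (26.0 ± 7.08) and p120-catenin Ctnnd1 (19.8 ± 6.09 CPM per kb, SD, n = 11) accompanied Cdh1. Of the desmosomal partners, the tetraspan protein Perp was abundant (90.5 ± 6.96) and plakophilin 4, Pkp4, was present (4.36 ± 1.26 CPM per kb). The desmosomal cadherins Dsg2 (0.068 ± 0.076) and Dsc2 (0.032 ± 0.030) were near the floor, with 155 and 48 counts in all 11 libraries together. The PALS1 gene, Pals1, stood at 1.40 ± 0.30 CPM per kb, close to Patj, while Crb3, the Crumbs gene of epithelium, had 39 counts in all. Mpdz, the close relative of Patj, was at 0.094 ± 0.061 CPM per kb, and its log2 fold change with hyperoxia was -0.57 ± 0.47 (SE).

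Beyond the 9 genes, 10 lists of polarity, junction and beta-catenin genes held 127 further genes. Of these, 126 matched an identifier and 113 passed the filter. With hyperoxia 1 of the 113 rose and 1 fell, against 0.541% and 0.165% of all genes. Their median log2 fold change was -0.05 (SD 0.53), with 51 above 0 and 62 below, beside a median of -0.03 over all genes tested. The gene that fell was Cldn1 (ENSMUSG00000022512), which encodes claudin 1, a sealing strand protein of tight junctions. It stood at 19.8, 26.6 and 11.4 CPM in NM1 to NM3 and 26.7, 26.5 and 18.1 CPM in NF1 to NF3. After hyperoxia it was 8.99 and 8.30 CPM in HM2 and HM3 and 10.4, 12.1 and 6.97 CPM in HF1 to HF3. Of the normoxia libraries, NM3 alone lay within the hyperoxia range. The log2 fold change was -1.22 ± 0.22 (SE), with adjusted p = 0.0139 (edgeR quasi-likelihood). The call was lost without HM2 (-1.24) or HM3 (-1.18). The gene that rose was Ccnd1, the cyclin that drives entry into S phase and a textbook target of beta-catenin and TCF (1.74 ± 0.22, adjusted p = 0.00134, edgeR quasi-likelihood). Ccnd1 stood at 4.46 to 7.90 CPM in the 6 normoxia libraries and at 18.2, 17.2, 11.9, 31.8 and 17.3 CPM in HM2, HM3 and HF1 to HF3, without overlap. Its highest library, HF2, is also the one with all 12 monocyte and interstitial macrophage markers at their highest, whose part in it was not tested. The call was lost, at 1.32, when NM3, NF3, HF2 and HF3 were dropped.

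The sequence before the start of Patj and of Cldn1 is shown because, of the polarity and tight junction genes, only these were called lower after hyperoxia. Other genes of both kinds had estimates below 0 without a call, and Patj was chosen on this comparison. Each is the 250 bases before the outermost start in RefSeq (build GRCm38.p6), at chr4:98395576-98395825 on the plus strand for Patj and chr16:26371840-26372089 on the minus strand for Cldn1. Capitals mark E-boxes (CANNTG, a general form whose variants are read by many factors) and GC boxes (GGGCGG, read by SP factors), searched on both strands.
Patj: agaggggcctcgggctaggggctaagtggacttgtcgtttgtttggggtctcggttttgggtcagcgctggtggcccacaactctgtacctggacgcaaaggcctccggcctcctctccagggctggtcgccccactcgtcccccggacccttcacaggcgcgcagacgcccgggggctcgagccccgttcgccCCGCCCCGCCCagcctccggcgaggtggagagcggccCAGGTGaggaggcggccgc
Cldn1: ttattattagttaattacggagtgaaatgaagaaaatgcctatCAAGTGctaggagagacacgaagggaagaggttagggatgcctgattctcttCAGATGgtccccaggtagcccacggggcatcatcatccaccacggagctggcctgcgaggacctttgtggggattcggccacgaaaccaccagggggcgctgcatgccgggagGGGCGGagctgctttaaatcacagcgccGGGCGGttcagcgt
Patj had 1 E-box and 2 GC boxes, which overlap each other, and Cldn1 had 2 of each. Of 32851 RefSeq windows of this length, 66.2% held an E-box and 32.7% a GC box. The counts are per gene, so they do not say which of the 3 RefSeq starts of Patj was in use. The table held windows for 7 of the 9 genes, and Pkp2 and Cdh1 were not among them.

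The other lists are given with the up to 3 genes of smallest p in each, of which none besides Cldn1 and Ccnd1 passed edgeR's quasi-likelihood test. Among the 25 tight junction genes measured, these were the endothelial claudin Cldn5 (-1.22 ± 0.35), the scaffold Magi3 (0.44 ± 0.18) and occludin, Ocln (-0.61 ± 0.31, all log2 fold change ± SE). Among 15 adherens genes they were the nectins Nectin1 (0.999 ± 0.292) and Nectin2 (0.53 ± 0.24), and vinculin, Vcl (0.50 ± 0.17), which couples catenins to actin. The 11 desmosome genes had Pkp1 (-2.05 ± 0.98), Pkp4 (0.36 ± 0.20) and Dsg3 (-1.33 ± 1.07). The medians of the tight junction, adherens and desmosome lists were -0.13, -0.02 and -0.26. Without NM3 Nectin1 passed (1.31, adjusted p = 0.0288 in the same edgeR test), and without NM2 Cldn5 did (-1.40, adjusted p = 0.0281, edgeR quasi-likelihood). Cldn5 also passed with DESeq2 (adjusted p = 0.0307) and in edgeR without the filter on low counts (adjusted p = 0.00815).

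Of 9 Crumbs and PALS1 genes, 7 PAR genes and 5 Scribble genes none passed, and the medians were -0.23, -0.12 and -0.01. Their genes of smallest p were Mpdz, the angiomotin Amotl1 (-0.28 ± 0.26) and Lin7b (0.56 ± 0.88), then Pard6b (-0.43 ± 0.34), the small GTPase gene Cdc42 (-0.13 ± 0.18) and Prkci (0.13 ± 0.18), an atypical protein kinase C, and Llgl1 (0.13 ± 0.21), Scrib (0.09 ± 0.20) and Dlg1 (-0.04 ± 0.17). The beta-catenin destruction complex had a median of 0.06 over 9 genes, with Apc2 (-0.82 ± 0.67), Axin1 (0.15 ± 0.19) and Apc (0.14 ± 0.22) first by p. Of 12 TCF target genes (median 0.13), Ccnd1 alone was called. Apcdd1 (0.44 ± 0.20), Nkd1 (-0.63 ± 0.35) and Znrf3 (0.45 ± 0.30) were next by p, and Axin2, the most widely used readout of Wnt signalling, stood at -0.14 ± 0.57.

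The 7 gap junction genes (median 0.12) had Gja5 (-1.24 ± 0.72), Gjb2 (1.09 ± 0.77) and Gja4 (-0.68 ± 0.65) first by p, and Gja1, connexin 43, was near the floor (0.069 CPM per kb). Of 13 regulators and receptors of E-cadherin (median -0.14), Itgae, the integrin chain CD103 that binds E-cadherin, had the smallest p (1.20 ± 0.32, adjusted p = 0.117 in the edgeR test). Itgae ranged from 1.75 to 2.89 CPM in normoxia and from 1.29 to 7.57 CPM in hyperoxia. HF1 was the hyperoxia library below the normoxia range, and Itgae passed without it (1.41, adjusted p = 0.0195, edgeR quasi-likelihood). Itgae also passed with DESeq2 (adjusted p = 0.0375) and in edgeR without the filter on low counts (adjusted p = 0.0147). The sheddase gene Adam10 (0.39 ± 0.21) and the repressor gene Snai1 (-0.88 ± 0.83) followed.

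Sex was not used to choose the 9 genes, so they were tested in 2 comparisons on it. For female minus male over both oxygen groups, 0.0251% of all genes were called and none of the 9 genes was. Patj had the smallest p of the 9, with a log2 difference of 0.43 ± 0.20 (SE), higher in the female mean in both oxygen groups (unadjusted p = 0.0428, adjusted p = 0.994, edgeR quasi-likelihood). The difference was 0.26 without HF1 and 0.56 without NM2. Patj averaged 26.5 ± 7.25 and 35.7 ± 6.91 CPM in normoxia males and females (SD, n = 3 each). After hyperoxia it averaged 6.10 ± 0.05 (SD, n = 2) and 8.29 ± 3.09 CPM (SD, n = 3). For the female response minus the male response, 0.0% of all genes were called (1.67% at an unadjusted p under 0.05), and none of the 9 was. DESeq2 called 3 genes in that comparison and none of the 9. The estimate was 0.01 ± 0.39 for Patj and 0.01 ± 0.67 for Pkp2, so for Pkp2 the SE covers differences of more than 1.5-fold. The furthest from 0 were Pard3 (0.79 ± 0.88), Tjp1 (0.77 ± 0.54), Dsp (0.74 ± 0.84) and Jup (-0.70 ± 0.46).

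Genes whose pattern over the 11 libraries was most like that of Patj and Pkp2 were found by Pearson correlation of log2 CPM among 11098 genes. The libraries share the exposure groups, so a gene that differs between them will correlate, and r is a description. Closest to Patj were Sorbs3 (r = 0.982), a vinculin-binding adaptor, Slc9a4 (0.974), a sodium-proton exchanger, Leng9 (0.970), Cidec (0.964), a lipid droplet protein, and Plcb1 (0.961), a phospholipase C. Closest to Pkp2 were Rad18 (r = 0.970), a ubiquitin ligase of DNA damage tolerance, Pstpip1 (0.957), a cytoskeletal adaptor, Raet1d (0.952), a ligand of the NKG2D receptor, Cip2a (0.951), an inhibitor of PP2A, and Scamp5 (0.946). None of the 10 is on a junction or polarity list, and Cidec is 1 of the 5 alveolar macrophage markers that fell.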

How the data were processed

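The authors deposited raw counts, whole numbers for each Ensembl identifier in every library, without normalization. Per the labels' protocols, cDNA was made with a low-input full-length kit, the first 8 nt (molecular identifiers) and the adapter were trimmed, and libraries called Novg were purified of fragments under 250 bp and resequenced. The submitters' processing notes name build mm39, DESeq2 1.42 and R 4.3.2, and for the reads Salmon 1.10.1, STAR 2.7.9 and Trim Galore 0.6.7. What each tool did, which annotation and strand setting applied and whether identifiers were used to count molecules: not given in the sources used here. Without strand, antisense reads cannot be told apart: Ctnnb1 shares exon bases with Ulk4 on the other strand, and Dsp with Gm10129, which held 331 and 55 counts in all.

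Symbols came from a gene name table that matched 90.7% of identifiers, and exon lengths from GENCODE M21. Counts were filtered with edgeR 4.0.16 (R 4.3.3, filterByExpr, about 10 counts in the smallest group and 15 in total), scaled by TMM and fitted with 1 mean per group by the robust quasi-likelihood method. A gene was called at a Benjamini-Hochberg adjusted p under 0.05 over all genes tested. The steps were tested on simulated data. Alternatives were DESeq2 1.42.0, RLE scaling, no filter, a replicate block, each library left out and the 4 libraries with most genes detected left out. Named list genes are those called and up to 3 more of smallest p per list. The 5 most similar genes needed a mean log2 CPM (prior count 2) of at least 1. The 9 genes and all lists were chosen with earlier results of these data known. Dsg1b, Dsc1 and 11 further list genes did not pass the filter, and Arvcf had no identifier in the name table.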

Additional observations from a re-analysis of the deposited data

How the results depend on the processing

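For hyperoxia over both sexes the count of 141 was 448 with DESeq2, 302 without the filter and 23 when NM3, NF3, HF2 and HF3 were dropped (HF1 then stands alone for its group and is assumed to vary like the others), and ran from 36 (without HM3) to 195 (without NM2) with 1 library left out. For males (8) these were 89, 83 and 16, with 0 to 19, and for females (8) they were 95, 96 and 2, with 0 to 24. For female minus male (5) DESeq2 gave 35 and no filter 62, with 5 to 14 when 1 library was left out. For the female minus the male response (0) the values were 3, 6 and 1, with 0 to 1. Other junction and polarity genes called (2) numbered 4 with DESeq2, 4 without the filter and 1 without the 4 libraries, with 1 to 3. Whether replicate numbers pair the libraries was not settled. Deviations from the group means correlated at -0.17 to 0.57 in the 15 same-number pairs (7 above 0.1). In other pairs r was -0.61 to 0.51. Outside hyperoxia males, same-number r was 0.13 to 0.31 for number 1, -0.17 to 0.44 for number 2 and 0.43 to 0.57 for number 3. HM2 and HM3, alone in their group, mirror each other, so their pairs cannot bear on it. With a replicate block the counts were 256, 21, 23, 9, 0 and 2. With 1 library left out, the log2 fold change of Patj ran from -2.29 (without HF1) to -1.99 (without NM2) and that of Pkp2 from 1.59 (without HF3) to 2.08 (without NM1). They were -1.95 and 1.47 without the 4 libraries. The low counts of Pkp2, Dsp and Pard3 limit their precision.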

Other observations

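Ratios within the desmosome genes were chosen after their values had been seen and are given as values. Pkp2 relative to Dsp per length was 0.185 to 1.59 in normoxia and 2.80 to 4.05 in hyperoxia. Pkp2 relative to Jup was 0.00562 to 0.0258 in normoxia and 0.0241 to 0.0800 in hyperoxia, so plakoglobin RNA exceeded plakophilin 2 RNA by more than 10 times in every library.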
